A study of Mus musculus with 36 samples.

Results

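The genes described here are 7 cytokine genes of macrophages: Tnf, Il1a, Il1b, Il6 and Il12b, which encode inflammatory cytokines, and Il1rn and Il10, whose products restrain inflammation. They were found on the array by gene name, ignoring case, among 45281 probes, and 12 probes carried one of the 7 names. The cells were macrophages grown with M-CSF from the bone marrow of C57BL/6 mice aged 2 to 5 months, and RNA was read on 36 Illumina bead arrays. The study asked whether cyclodextrin (CD), a ring-shaped sugar that takes up cholesterol, acts on macrophage transcripts by way of the liver X receptors LXRa and LXRb, transcription factors that oxidised cholesterol switches on. The mice either lacked both LXRa and LXRb (dko) or were wild type (wt), and cells of each genotype were given cholesterol crystals for 3 h followed by 10 mM CD for 4 h, CD without crystals, crystals without CD, or neither. Each of the 4 dko groups held 4 arrays, which the labels number 6 to 9, and each of the 4 wt groups held 5, numbered 1 to 5. The labels do not say whether arrays came from separate animals or cultures, so p-values reflect only how far these arrays spread, some of which may be technical.

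TNF is released early by macrophages that meet microbial or sterile danger signals and acts on neighbouring cells through its own receptors. IL-1α and IL-1β act through a shared receptor, and IL-1β is made as an inactive precursor that the inflammasome cuts. Cholesterol crystals are known as a trigger of the inflammasome. The IL-1 receptor antagonist, the product of Il1rn, occupies the IL-1 receptor without activating it. IL-6 carries the inflammatory signal to the liver and other tissues, the product of Il12b is the shared subunit of IL-12 and IL-23, and IL-10 dampens macrophage activation. The arrays measure transcripts only, so release of the proteins was not measured.

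Promoter sequences are shown for the 4 inflammatory genes whose signal was highest on the same CD-treated arrays, as described below. RefSeq promoter entries (GRCm38.p6) were found for 6 of the 7 genes, all but Il10, and the 250 bases before the annotated start are given 5′ to 3′ on the gene's strand. The windows are chr17:35202008-35202257 on the minus strand for Tnf, chr2:129309973-129310222 on the minus strand for Il1a, chr2:129371140-129371389 on the minus strand for Il1b and chr5:30012864-30013113 on the plus strand for Il6. Capitals mark every match, on either strand, to 3 motifs: GGG followed by any 2 bases and TTTCC (a binding pattern of NF-kB), TGANTCA (a binding pattern of AP-1) and TATAAA (the TATA box).
Tnf: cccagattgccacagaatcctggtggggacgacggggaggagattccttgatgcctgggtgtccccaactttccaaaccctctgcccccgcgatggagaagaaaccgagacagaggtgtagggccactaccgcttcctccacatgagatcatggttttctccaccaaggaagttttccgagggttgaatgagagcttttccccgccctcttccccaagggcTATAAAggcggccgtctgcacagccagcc
Il1a: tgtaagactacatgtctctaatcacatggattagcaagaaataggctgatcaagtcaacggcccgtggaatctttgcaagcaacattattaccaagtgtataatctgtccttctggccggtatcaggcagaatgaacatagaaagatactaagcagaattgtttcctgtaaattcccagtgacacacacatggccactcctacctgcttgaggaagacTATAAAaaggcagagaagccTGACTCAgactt
Il1b: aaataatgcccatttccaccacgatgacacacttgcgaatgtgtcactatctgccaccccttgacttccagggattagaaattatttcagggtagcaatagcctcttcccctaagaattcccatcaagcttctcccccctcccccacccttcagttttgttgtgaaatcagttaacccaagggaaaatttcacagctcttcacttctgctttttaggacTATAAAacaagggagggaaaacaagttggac
Il6: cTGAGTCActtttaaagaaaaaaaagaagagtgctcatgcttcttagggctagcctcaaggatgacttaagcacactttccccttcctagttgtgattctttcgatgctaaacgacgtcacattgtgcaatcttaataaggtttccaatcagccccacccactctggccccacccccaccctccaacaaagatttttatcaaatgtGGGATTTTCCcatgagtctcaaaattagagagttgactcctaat
No 2 matches overlapped. TATAAA lay 29, 32 and 31 bases before the start of Tnf, Il1a and Il1b, counted from its first base, while 12.4% of the 32851 RefSeq promoter windows of this length held it. Only the Il6 window of these 4 held the NF-kB pattern, 44 bases before the start, against 1.41% of all windows. TGANTCA occurred in the Il1a window, 12 bases before the start, and at the far edge of the Il6 window, 249 bases before it, and in 6.75% of all windows. Il1rn had 3 annotated starts, of which 1 window held TGANTCA and another the NF-kB pattern, and the Il12b window held none of the 3 motifs.

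Before normalization the array medians ran from 83.5 to 128.3 intensity units, and 15342 to 17892 probes were detected per array. All 8 macrophage markers checked (Adgre1, Cd68, Csf1r, Itgam, Lyz2, Cd14, Fcgr1 and Mertk) were detected on all 36 arrays, while Cd3e of T cells, Pax5 of B cells, Cd209a of dendritic cells and Tpsb2 of mast cells were detected on 0. Col1a1 and Dcn of fibroblasts and S100a8 of neutrophils were detected on all 36. The probes of the targeted genes did not check the genotype: the best detected Nr1h3 probe averaged 9.81 in untreated dko and 9.52 in untreated wt cells, and that of Nr1h2 9.36 and 8.89, on a log2 scale, and the position of these probes relative to the deletions was not known. The arrays differed in Xist, the RNA of the inactive X chromosome of female cells, which was detected on 20 arrays and not on the other 16. The Y-linked genes Eif2s3y and Kdm5d were detected on all 16 arrays without Xist and on 0 of the 20 with it. Ddx3y, also Y-linked, was detected on all 36, at 10.05 to 11.28 without Xist and 5.51 to 7.75 with it. The labels give no sex. Among wt arrays Xist was detected on every array numbered 1 to 3, all from 2 slides that held wt alone, and on no array numbered 4 or 5, all from slides shared with dko, so in wt the Xist state, the array number and the slide cannot be told apart. Among dko arrays each group held 2 arrays of either state, each of the 4 slides held both states, and each number from 6 to 9 carried Xist in some groups and not in others, so the number does not fix the Xist state there.

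Levels are given as log2 intensity after background correction and quantile normalization, on which values near 4.3 are background, and a change is a difference of group means with its standard error (SE). A gene was called changed at a Benjamini-Hochberg adjusted p under 0.05 from limma's two-sided moderated test over 14416 genes, fitted to all 36 arrays. Of the 12 probes, 10 passed the detection filter (detection p under 0.05 on at least 4 arrays), and the brightest probe stood for a gene, which left 6 of the 7 genes tested. That filter also admits a probe seen only where it is high, as for Il6, so the tested genes are not all 7. The 1 Il12b probe was detected on 0 of 36 arrays, with levels of 4.15 to 4.51, and the RNA of the IL-12 and IL-23 subunit was therefore not measurable in any group.

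Tnf RNA was detected on every array, at 172 to 14933 intensity units over its 2 probes, and was highest in the 4 groups given CD. In dko cells given CD alone it read 9.62, 13.12, 10.04 and 13.16 (arrays 6 to 9), against 7.41, 8.0, 9.37 and 7.31 in untreated dko cells. Every array with CD lay above every array without it, and the CD arrays split into a high and a low pair. The change was 3.46 (SE 0.88), an 11-fold difference, and was called (adjusted p = 0.0307), in a comparison that called 1.71% of all genes. In bulk RNA fewer cells making a transcript and less of it per cell cannot be told apart. In dko cells given crystals and CD Tnf read 13.62, 10.33, 13.38 and 10.87, against 9.36, 9.59, 7.75 and 7.86 with crystals alone. The groups again did not overlap, and the change of 3.41 (SE 0.88) was called (adjusted p = 0.0366), where 1.8% of genes were. Of the 8 arrays in each comparison, leaving out any 1 of 5 (without crystals) or any 1 of 6 (with crystals) ended the call, with changes of 2.91 to 4.09 and of 2.89 to 3.98.

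In wt cells given CD alone Tnf read 9.42, 9.06, 9.82, 12.13 and 13.10 (arrays 1 to 5), against 7.47, 7.41, 7.58, 8.04 and 8.22 in untreated wt cells. The groups did not overlap, and arrays 4 and 5 were the highest with CD. The difference of 2.96 (SE 0.78) was not called (adjusted p = 0.0612), where 0.895% of genes were and was called with the slide as a fixed block, at 3.04 (adjusted p = 0.0446), and with the Xist state as a block (adjusted p = 9.81e-05). In wt cells given crystals and CD Tnf read 9.82, 9.64, 10.28, 12.33 and 13.05, against 9.02, 8.15, 8.85, 8.68 and 8.77 with crystals alone. Here too no array with CD lay as low as any without it, yet the difference of 2.33 (SE 0.78) was not called (adjusted p = 0.363), and was called with the Xist state as a block (SE 0.44, adjusted p = 0.00872). That comparison called 0% of genes by limma, while 1042 genes had an unadjusted p under 0.05. Within the slides that held both arrays of a comparison, the CD difference in Tnf was 0.74 to 5.16 in dko cells (5 slide values) and 1.94 and 1.41 in wt cells (1 slide each), always higher with CD. In dko the arrays compared were not all of 1 Xist state. On slide 4 (0.74) only the CD array carried Xist, and on slide 2 (4.82) only 1 of the 2 arrays without CD did. Within 1 state the dko values were 2.26, 5.16 and 3.01.

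In falling order the group means of Tnf were 12.05 ± 1.69 (SD, n = 4) in dko cells with crystals and CD, 11.49 ± 1.92 in dko with CD, 11.02 ± 1.56 (n = 5) in wt with crystals and CD and 10.71 ± 1.80 in wt with CD. The groups without CD followed at 8.69 ± 0.33 in wt with crystals, 8.64 ± 0.97 in dko with crystals, 8.02 ± 0.95 in untreated dko and 7.75 ± 0.365 in untreated wt cells. Neighbours in this order differed by less than their SD, except across the step between groups with and without CD, where the gap of means exceeded either SD. The second Tnf probe followed the first with a correlation of 0.997 over 36 arrays, and its changes with CD in dko were 3.67 and 3.43, both called in the fit over all probes.

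**Figure D1:**
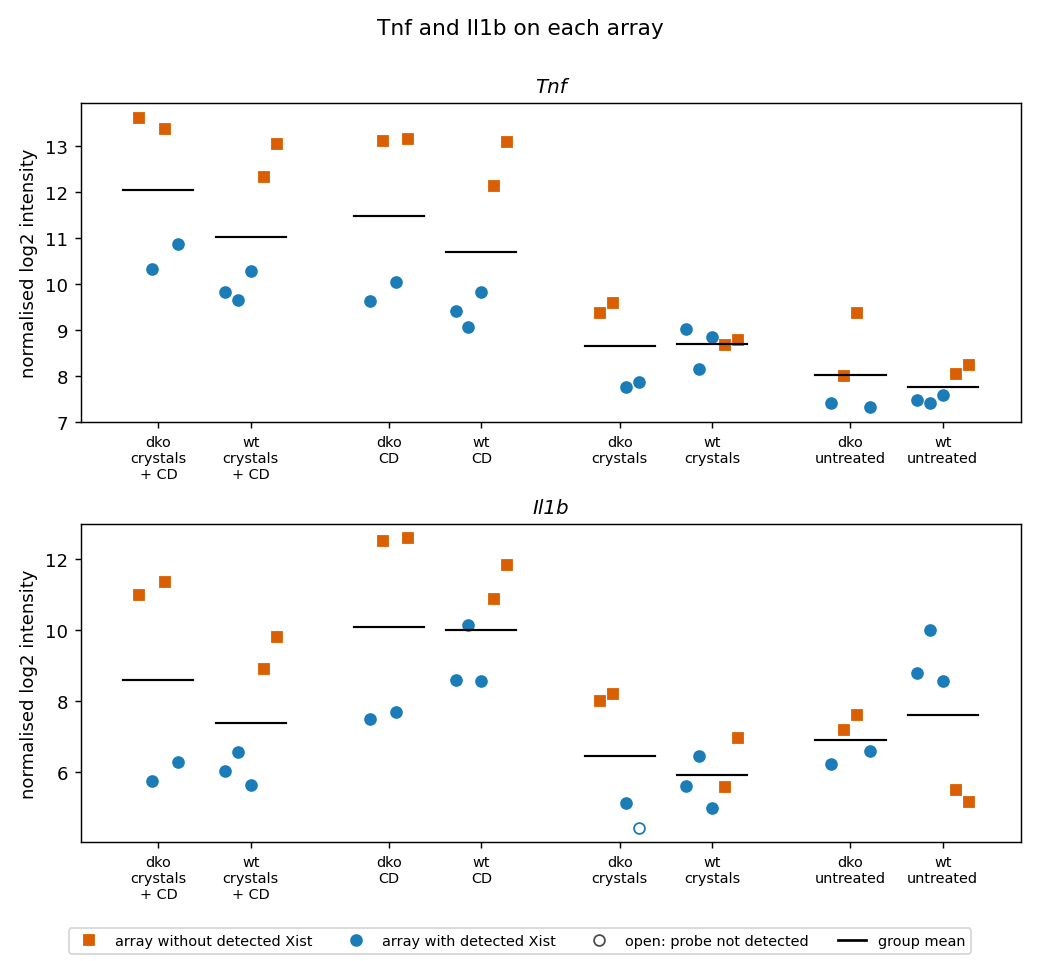
Normalised log2 intensity of Tnf (top) and Il1b (bottom) on each of 36 arrays, in 8 groups with dko left of wt; orange squares are arrays without detected Xist, blue circles arrays with it, open symbols arrays where the probe was not detected, and bars group means. With CD the Tnf squares lie at 12.13 to 13.62 and the circles at 9.06 to 10.87.

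Il1b was detected on 35 of 36 arrays and spanned 84.0 to 7275 intensity units, and its largest SD within a group, 2.99, was the largest of the 7 genes. In dko cells given CD alone it read 7.50, 12.51, 7.67 and 12.58, against 6.21, 7.19, 7.60 and 6.58 in untreated dko cells. In dko cells given crystals and CD it read 10.98, 5.75, 11.36 and 6.26, against 8.01, 8.20, 5.14 and 4.42 with crystals alone. In both comparisons the arrays with CD formed a high and a low pair, and the low pair overlapped the arrays without CD. The differences of 3.17 (SE 1.29, adjusted p = 0.262) and 2.15 (SE 1.29, adjusted p = 0.581) were not called.

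In wt cells given CD alone Il1b read 8.58, 10.13, 8.54, 10.88 and 11.82, against 8.77, 9.99, 8.55, 5.49 and 5.15 in untreated wt cells. Untreated arrays 1 to 3, the ones with Xist, were thus as high as the same numbers with CD, and untreated arrays 4 and 5 were far lower. In wt cells with crystals and CD it read 6.03, 6.56, 5.63, 8.88 and 9.79, against 5.61, 6.44, 4.99, 5.58 and 6.97 with crystals alone. The CD differences in wt, 2.40 (SE 1.16, adjusted p = 0.544) and 1.46 (SE 1.16, adjusted p = 0.907), were not called. The crystal differences were -1.67 (SE 1.16) without CD and -2.61 (SE 1.16) under CD, not called either (adjusted p = 0.423 and 0.197). In wt arrays 1 to 3 alone they were -3.42 and -3.01 and were called (adjusted p = 0.000573 and 0.00244), while in arrays 4 and 5, fitted with the dko arrays, they were 0.95 and -2.01, neither called (adjusted p = 1 for each). Fitted with the arrays without Xist alone, the same -2.01 was called (SE 0.40, adjusted p = 0.0134) and 0.95 was not (adjusted p = 0.287).

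In falling order the group means of Il1b were 10.06 ± 2.86 in dko with CD, 9.99 ± 1.44 in wt with CD and 8.59 ± 2.99 in dko with crystals and CD, 7.59 ± 2.15 in untreated wt, 7.38 ± 1.85 in wt with crystals and CD, 6.90 ± 0.62 in untreated dko, 6.44 ± 1.94 in dko with crystals and 5.92 ± 0.78 in wt with crystals (SD, n = 4 for dko and 5 for wt). No 2 neighbours in this order differed by more than the larger of their SDs.

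Il1a was detected on 17 and 18 arrays by its 2 probes, whose levels correlated at 0.985 over 36 arrays. It was not detected in any of the 9 untreated arrays. In wt cells given crystals alone it was detected on 5 of 5 arrays, at 6.46, 5.47, 5.75, 5.42 and 5.51, against 4.31 to 4.58 on untreated wt arrays. The groups did not overlap, and this was at least 2.07-fold higher with crystals, a bound set by the dimmest detected signal (detection p under 0.05) on the untreated arrays, which lies near background. The change of 1.32 (SE 0.68) was not called (adjusted p = 0.230), where 14% of genes were. In dko cells given crystals alone Il1a was detected on 1 of 4 arrays, at 4.90, and lay at 4.38 to 4.55 on the other 3. With CD alone it was detected on 2 of 4 dko arrays, at 7.96 and 7.73, and lay at 4.31 and 4.41 on the other 2, against 4.18 to 4.57 in untreated dko cells (change 1.77, SE 0.76, adjusted p = 0.291). The CD group mean was 2.68-fold above the dimmest detected signal on untreated arrays. That mean includes arrays below detection, so the fold is not a lower bound. By the brighter probe Il1a was detected with CD alone in wt on arrays 4 and 5, at 5.59 and 7.17, and not on arrays 1 to 3, against 0 of 5 untreated (change 0.85, SE 0.68, adjusted p = 0.850). The fold found in the same way was 1.48, under the same limit. With crystals and CD Il1a was detected on 2 of 4 dko arrays, at 7.82 and 7.80, and on 5 of 5 wt arrays, at 5.77, 5.59, 5.26, 7.08 and 8.16. The CD changes on top of crystals, 1.53 (SE 0.76) in dko and 0.66 (SE 0.68) in wt, were not called (adjusted p = 0.422 and 0.952).

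Il6 was detected on 7 of 36 arrays, all of them given CD. These were 2 of 4 dko arrays with crystals and CD, at 6.04 and 6.21, 2 of 5 wt arrays with crystals and CD, at 4.98 and 5.58, 2 of 4 dko arrays with CD alone, at 5.59 and 6.03, and 1 of 5 wt arrays with CD alone, at 5.34. On the other 29 arrays it lay at 4.22 to 4.64. Against the dimmest detected signal on arrays without CD, the CD group means were 1.5-fold higher in dko cells with crystals and 1.05-fold higher in wt cells with crystals. In dko cells without crystals the fold was 1.39, and none could be given in wt cells without crystals. These means include CD arrays below detection, so the folds are not lower bounds. The changes of 0.87 (SE 0.34), 0.36 (SE 0.30), 0.84 (SE 0.34) and 0.18 (SE 0.30) in these 4 comparisons were not called, with adjusted p of 0.229 to 0.973. For Il1a and Il6, whose probes were below detection in whole groups, the fitted changes do not measure differences that lie below background.

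**Figure D2:**
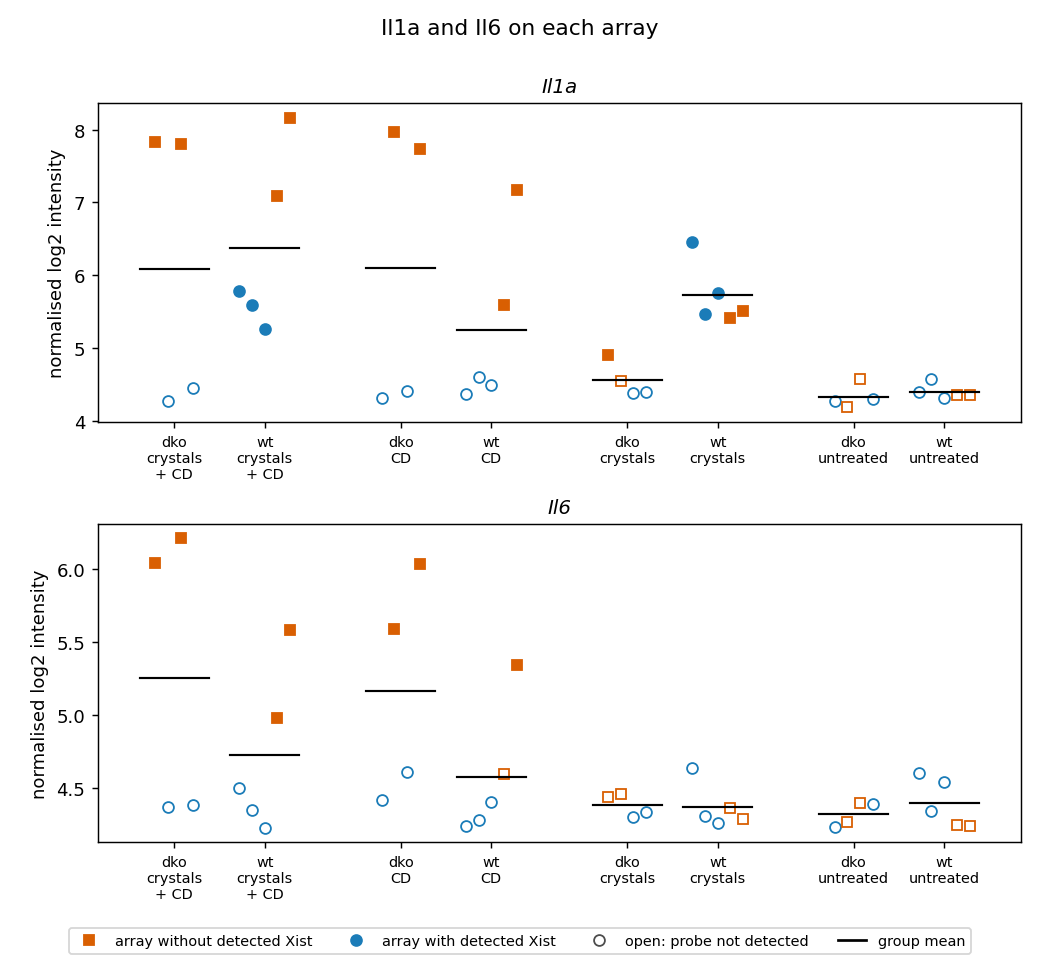
Normalised log2 intensity of Il1a (top) and Il6 (bottom) on each of 36 arrays, in 8 groups with dko left of wt; orange squares are arrays without detected Xist, blue circles arrays with it, open symbols arrays where the probe was not detected, and bars group means. All 7 detections of Il6 are squares with CD, and Il1a was also detected on all 5 wt arrays with crystals alone.

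The split of the CD-treated arrays followed the Xist state: in each of the 4 CD groups every array without Xist lay above every array with it, for Tnf, Il1a, Il1b and Il6 alike. Tnf with CD read 13.12 to 13.62 on the 4 dko arrays without Xist and 9.62 to 10.87 on the 4 with it. In wt it read 12.13 to 13.10 on the 4 CD arrays without Xist and 9.06 to 10.28 on the 6 with it. In neither genotype did the 2 states overlap, and on dko arrays without CD Tnf read 8.0 to 9.59 without Xist and 7.31 to 7.86 with it. Arrays of the same number and slide could differ: dko number 6 on slide 3 read 13.62 with crystals and CD, where Xist was not detected, and 9.62 with CD alone, where it was. Dko number 7 on slide 4 read 10.33 with crystals and CD, with Xist, and 13.12 with CD alone, without it.

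A model with a mean for each group and Xist state gave the CD effect within each state, averaged over loaded and unloaded cells, and the difference of that effect between states. It was chosen after this split was seen, so its p-values describe the split and are no independent evidence for it. In dko arrays without Xist CD raised Tnf by 4.24 (SE 0.25, adjusted p = 1.28e-12), Il1b by 4.11 (SE 0.37), Il1a by 3.28 (SE 0.24), Il6 by 1.58 (SE 0.14) and Il1rn by 0.73 (SE 0.20), all called, in a comparison that called 18.2% of all genes. Il6 passed the detection filter only through CD arrays without Xist, so its calls here follow from that filter and its values are a description. In dko arrays with Xist CD raised Tnf by 2.63 (SE 0.25, adjusted p = 1.56e-07), the one call among the 6, against 2.91% of genes. There Il1b differed by 1.21 (SE 0.37, adjusted p = 0.0828) and Il1a by 0.03 (SE 0.24, adjusted p = 0.983). In wt arrays without Xist CD raised Il1b by 4.55 (SE 0.37), Tnf by 4.22 (SE 0.25), Il1a by 2.09 (SE 0.24) and Il6 by 0.84 (SE 0.14), all called, against 10.4% of all genes. In wt arrays with Xist it raised Tnf alone of the 6, by 1.59 (SE 0.20, adjusted p = 3.95e-05), against 1.51% of all genes, a call lost on values of the series matrix (1.37, adjusted p = 0.0806), and Il1b differed by 0.19 (SE 0.30, adjusted p = 0.902).

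The CD effect itself was larger without Xist than with it for the genes named next. In dko cells, where slides held both states, the difference was 3.26 for Il1a (SE 0.34, adjusted p = 9.09e-07), 2.90 for Il1b (SE 0.53, adjusted p = 0.000755), 1.61 for Tnf (SE 0.35, adjusted p = 0.00494) and 0.97 for Il1rn (SE 0.28, adjusted p = 0.0369), against 5.22% of genes called. That of Il6 was 1.45 (SE 0.20), a description only, because its probe passed the detection filter through CD arrays without Xist alone. The Il1rn call was lost without any 1 of 13 of the 16 dko arrays (adjusted p of 0.0215 to 0.110), and under 5 of 7 other settings, whereas leaving out single arrays ended no call for Tnf, Il1a or Il1b. The Tnf call was lost under median scaling (1.72, adjusted p = 0.131) and on values of the series matrix (1.96, adjusted p = 0.0707), where the Il6 difference was 0.47. In wt cells the difference was 4.36 for Il1b (SE 0.48, adjusted p = 1.33e-06), 2.63 for Tnf (SE 0.32, adjusted p = 5.78e-06) and 2.24 for Il1a (SE 0.31, adjusted p = 3.31e-05), against 3.51% of genes, and there slide and array number moved with the Xist state. For Il6, under the same limit of the filter, it was 0.96 (SE 0.18). On values of the series matrix the wt call for Il1a was lost (1.01, adjusted p = 0.260), and the Il6 difference was 0.37. Il10 showed no called difference in either genotype, at -0.03 (SE 0.29) in dko and 0.18 (SE 0.27) in wt.

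**Figure D3:**
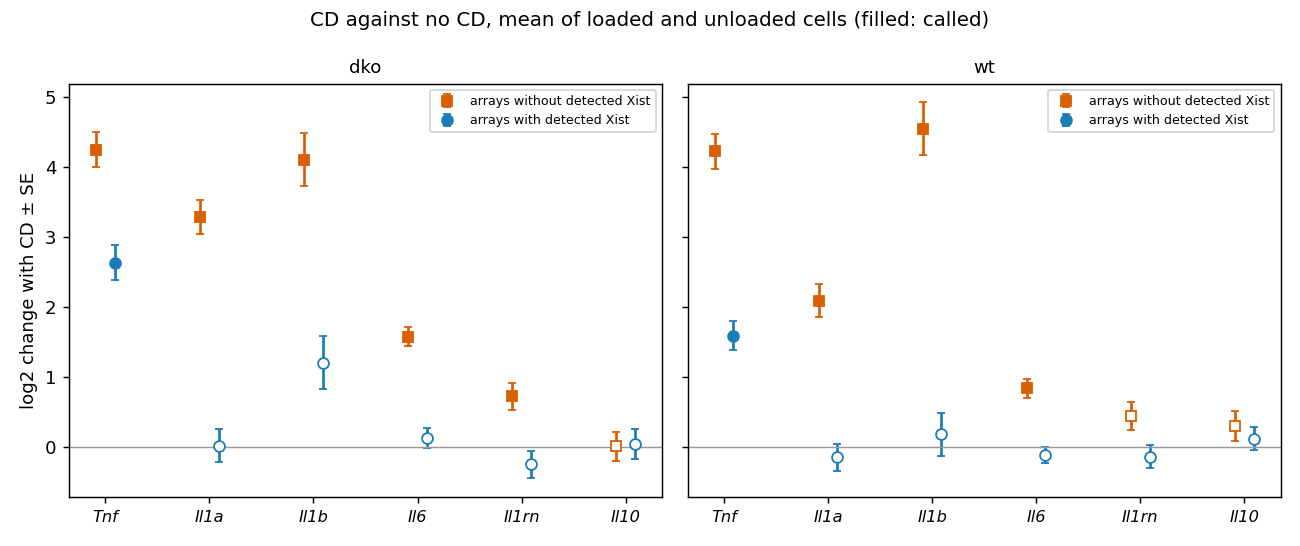
Log2 change with CD (y axis, ± SE) of the 6 tested genes in dko (left) and wt (right), averaged over loaded and unloaded cells, on arrays without detected Xist (orange squares) and with it (blue circles); filled symbols have an adjusted p under 0.05. Tnf rose in all 4 sets, by 4.24 and 2.63 in dko and by 4.22 and 1.59 in wt, while Il1a was called in the sets without Xist and not in those with it. The filled Il6 symbols follow from the detection filter, which Il6 passed through CD arrays without Xist alone.

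Markers of other cells differed between the states too. The summed level of 4 fibroblast markers on CD arrays was 10.7 to 10.9 in dko arrays without Xist and 11.1 to 11.3 in those with it, and 9.98 to 10.9 in wt arrays without Xist and 8.87 to 9.82 in those with it, so it was lower without Xist in dko and higher in wt. The summed level of 3 mast cell and basophil markers was 6.33 to 6.64 in dko arrays without Xist and 6.17 to 6.41 in those with it, and 6.20 to 6.54 in wt arrays without Xist and 6.01 to 6.10 in those with it, so it was higher without Xist in wt with no overlap and overlapped in dko. These 3 genes, Hdc, Gata2 and Fcer1a, were detected on 9, 10 and 9 of 36 arrays and reached at most 5.34, so background makes up much of this sum. The B cell and dendritic cell sums overlapped between the states in both genotypes. The sum of 5 neutrophil markers overlapped between the states in both genotypes, at 7.91 to 8.77 and 7.88 to 9.98 in dko and at 7.36 to 7.53 and 7.06 to 7.67 in wt. The sum of 8 macrophage markers was 15.7 to 16 and 15.5 to 15.8 in dko and 15.6 to 15.9 and 15.4 to 15.9 in wt. The part of these in the cytokine values was not tested.

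With crystals Il1rn rose and Il10 fell in wt cells. Il1rn was detected on all 36 arrays by its brightest probe. In wt cells given crystals alone it read 9.83, 9.29, 9.44, 9.18 and 9.25, against 6.82, 6.76, 6.69, 7.40 and 7.10 in untreated wt cells. The groups lay far apart with little spread within each. Il1rn rose by 2.44 (SE 0.30, 5.44-fold, adjusted p = 6.68e-07), in a comparison that called 14% of all genes. In wt cells given crystals and CD it read 9.57, 9.11, 8.71, 9.39 and 9.59, against 6.93, 7.47, 6.23, 7.91 and 7.82 with CD alone. It rose there by 2.00 (SE 0.30, 4.00-fold, adjusted p = 2.35e-05), where 7.6% of genes were called, and again no array overlapped. The rise was called in each Xist state of wt, at 1.96 and 1.62 on arrays without Xist and 2.77 and 2.25 on those with it, each fitted alone. It was not called when wt arrays 4 and 5 were fitted with all dko arrays, at the same 1.96 and 1.62 (adjusted p = 0.0511 and 0.132).

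In dko cells given crystals alone Il1rn read 8.93, 8.66, 9.53 and 9.61, against 8.70, 7.36, 6.78 and 8.67 in untreated dko cells. The untreated arrays with Xist, 6 and 9, were near the loaded ones, and those without it were lower. The difference of 1.30 (SE 0.33) was not called (adjusted p = 0.0707), where 0.416% of genes were. It was called with the slide as a fixed block, at 1.56 (adjusted p = 0.0163), with the Xist state as a block, at 1.30 (adjusted p = 0.0494), and without untreated array 6 or 9, at 1.58 and 1.57. Under CD Il1rn read 9.19, 9.51, 9.15 and 9.0 in crystal-loaded dko cells, against 8.58, 8.25, 8.45 and 8.07 without crystals. These groups did not overlap, and the difference of 0.88 (SE 0.33) was not called (adjusted p = 0.547), where 0.472% of genes were.

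CD did not change Il1rn detectably in the comparisons of all arrays: the differences were 0.46 and 0.03 in dko and 0.32 and -0.12 in wt, without and with crystals, each with an SE of 0.30 or 0.33. The other Il1rn probes differed in dko. A probe for transcript variant 2, detected on 33 arrays, rose with crystals by 1.15 in dko and 1.93 in wt without CD and by 1.10 in dko and 1.67 in wt under CD, all 4 called in the fit over all probes (adjusted p of 1.2e-07 to 0.0145). A second probe for variant 1, detected on 23 arrays, rose in wt by 1.05 and 0.86 and gave 0.37 and 0.0056 in dko without and under CD, neither called (adjusted p = 0.612 and 1). The fourth Il1rn probe was detected on 0 of 36. The probes correlated at 0.781 to 0.849 over 36 arrays.

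Il10, detected on 35 of 36 arrays at 87.5 to 200 intensity units, moved the other way in wt. With crystals alone it read 4.79, 4.94, 5.06, 5.26 and 5.00 in wt cells, against 6.41, 6.34, 6.30, 6.25 and 6.25 in untreated wt cells. The groups did not overlap, and Il10 fell by 1.30 on the log2 scale (SE 0.21, adjusted p = 5.6e-05). The call was lost in wt arrays 4 and 5 fitted with dko (-1.12, adjusted p = 0.283) and on values of the series matrix (-0.50, adjusted p = 0.158). With crystals and CD it read 5.44, 5.29, 4.72, 5.76 and 5.70 in wt cells, against 6.27, 6.57, 6.29, 6.34 and 6.17 with CD alone. Again there was no overlap, and it fell by 0.95 (SE 0.21, adjusted p = 0.00351), a call that was lost with wt arrays 4 and 5 or the arrays without Xist (-0.52 in each, adjusted p = 1 and 0.237), under median scaling (-0.93, adjusted p = 0.0701), with the slide as a fixed block (-0.94, adjusted p = 0.0531) and on values of the series matrix (-0.24, adjusted p = 0.601). In dko cells with crystals alone Il10 read 5.26, 5.41, 4.46 and 5.07, against 6.11, 5.79, 6.14 and 4.96 in untreated dko cells. The 1 low untreated array, number 9, overlapped the loaded group, and the difference of -0.70 (SE 0.24) was not called (adjusted p = 0.270). Leaving that array out gave -0.96 (adjusted p = 0.0425). Under CD it read 5.50, 5.62, 5.71 and 4.79 in loaded dko cells, against 5.36, 6.07, 5.03 and 5.38 without crystals, a difference of -0.05 (SE 0.24, adjusted p = 1).

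**Figure D4:**
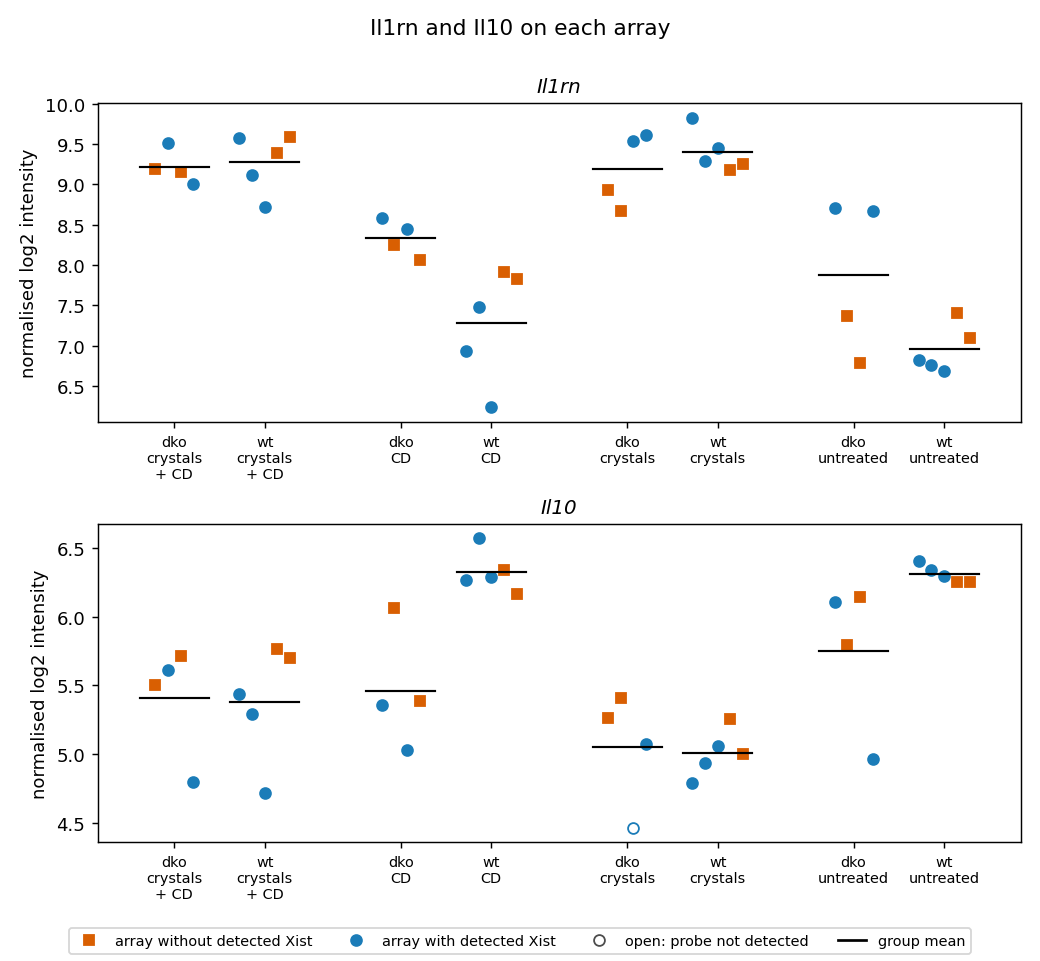
Normalised log2 intensity of Il1rn (top) and Il10 (bottom) on each of 36 arrays, in 8 groups with dko left of wt; orange squares are arrays without detected Xist, blue circles arrays with it, open symbols arrays where the probe was not detected, and bars group means. In wt the crystal groups average 9.40 and 9.27 for Il1rn, against 6.95 and 7.27 without crystals, and 5.01 and 5.38 for Il10, against 6.31 and 6.33.

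Tnf, Il1a and Il6 were not called with crystals in either genotype. The Tnf differences were 0.62 (SE 0.88) in dko and 0.95 (SE 0.78) in wt without CD and 0.56 and 0.32 under CD. On wt arrays with Xist, all from the slides that held wt alone, the crystal difference in Tnf was 1.18 (SE 0.24, adjusted p = 0.00158) and that in Il1a 1.47 (SE 0.19, adjusted p = 3.61e-05), both called. The crystal effect differed between Xist states for Il1b in wt, by 2.69 (SE 0.48, adjusted p = 0.00214, 1.91% of genes called). That call was lost under median scaling (2.36, adjusted p = 0.0608), with the slide as a fixed block (2.56, adjusted p = 0.0654) and on values of the series matrix (1.10, adjusted p = 0.297). The crystal effect differed for 0 of the 6 tested genes in dko, where 0.00694% of genes were called by limma and Il1b had an unadjusted p of 0.0239.

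**Figure D5:**
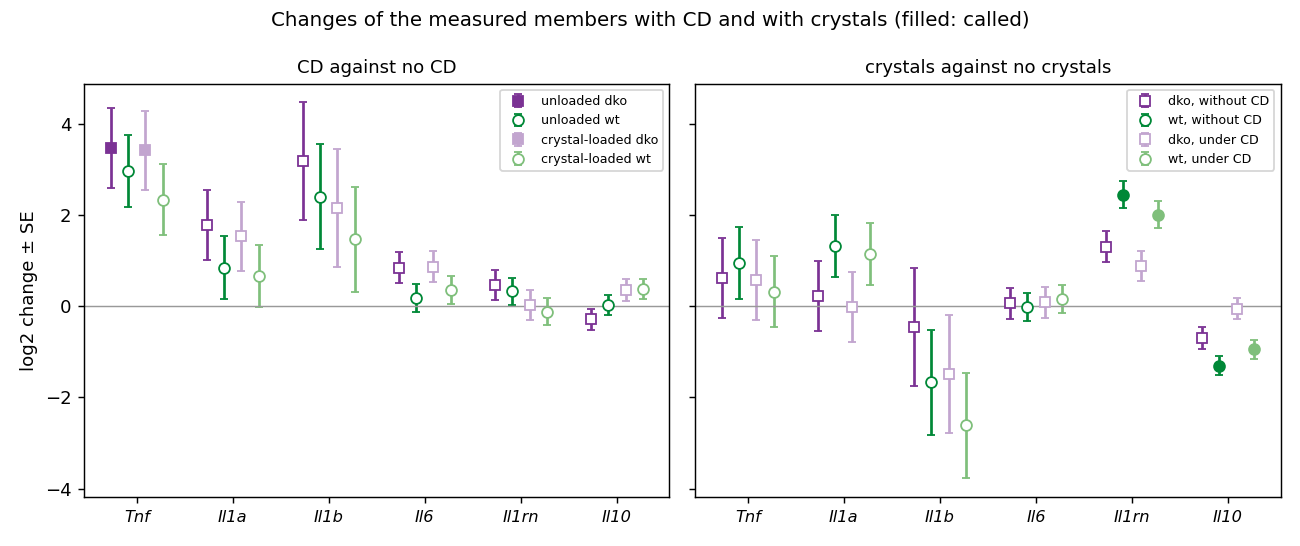
Log2 change (y axis, ± SE) of the 6 tested genes with CD (left) and with crystals (right), over all arrays of each comparison; squares are dko, circles wt, dark symbols cells without the other agent, light symbols cells with it, and filled symbols have an adjusted p under 0.05. The filled symbols are Tnf with CD in dko (3.46 and 3.41) and, with crystals in wt, Il1rn (2.44 and 2.00) and Il10 (-1.30 and -0.95).

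Between genotypes 0 of the 6 tested genes were called by limma in any of 4 treatments, where 0.208% (untreated), 0.375% (crystals), 0.368% (CD) and 0.451% (both) of all genes were, and 2, 0, 2 and 0 of the 6 had an unadjusted p under 0.05. In untreated cells Il1rn was 0.93 (SE 0.31, adjusted p = 0.206) higher in dko than in wt. On arrays without Xist the Il1rn difference was -0.18 (SE 0.18, adjusted p = 0.908), and on arrays with Xist 1.93 (SE 0.29, adjusted p = 0.000207). Il10 was lower in untreated dko by -0.56 (SE 0.23, adjusted p = 0.295). With CD alone the differences were 1.06 for Il1rn (SE 0.31, adjusted p = 0.138) and -0.87 for Il10 (SE 0.23, adjusted p = 0.0888), and the groups of either gene did not overlap. By Xist state Il1rn differed by 0.29 (adjusted p = 0.659) without Xist and 1.63 (adjusted p = 0.00101) with it. The Il10 difference was called with the Xist state as a block, at -0.90 (SE 0.20, adjusted p = 0.0217). With crystals alone Il1a was detected on 1 of 4 dko and 5 of 5 wt arrays and the groups did not overlap, with a difference of -1.17 (SE 0.72, adjusted p = 0.474). Untreated Il1b differed with opposite sign by Xist state. It averaged 7.40 in dko and 5.32 in wt on arrays without Xist, a difference of 2.08 (SE 0.40, adjusted p = 0.0228), and 6.40 in dko and 9.10 in wt on arrays with Xist, a difference of -2.71 (SE 0.50, adjusted p = 0.00138). The arrays of wt with Xist shared no slide with dko, so each genotype difference on arrays with Xist cannot be told apart from a slide difference.

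The response itself did not differ detectably between genotypes. For the CD effect without crystals the dko minus wt difference ran from -0.31 for Il10 to 0.93 for Il1a, and for Tnf it was 0.51 with a 95% interval of -1.89 to 2.90. With crystals the Tnf difference was 1.08, with an interval of -1.31 to 3.47. Limma called 0% of all genes in both, with 248 and 316 at an unadjusted p under 0.05. For the crystal effect Il1rn had the smallest p of the 6, at -1.14 (SE 0.44, interval -2.05 to -0.24, unadjusted p under 0.05, adjusted p = 0.847), where 0.0416% of genes were called. On arrays without Xist alone it was -0.24 (SE 0.26, adjusted p = 1), and that of Il1a -0.76 (SE 0.56, adjusted p = 1). On arrays with Xist alone they were -1.88 (SE 0.40, adjusted p = 0.0310) and -1.36 (SE 0.30, adjusted p = 0.0368), where the wt arrays came from slides of their own. Crystal loading did not detectably change the CD effect on any of the 6, by -0.06 (SE 1.24) for Tnf in dko, where 0% of genes were called by limma and 265 had an unadjusted p under 0.05, and by -0.63 (SE 1.11) in wt, where 0.0486% were called.

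Of 11 receptor genes for these cytokines 10 were tested. With CD 0 rose and 0 fell in any of the 4 comparisons of all arrays, and with crystals in wt 1 fell: Il10ra, the ligand-binding chain of the IL-10 receptor, fell by 0.78 (SE 0.14, adjusted p = 0.000225) without CD and by 0.87 (SE 0.14, adjusted p = 0.000101) under CD. The median change of the receptors in these 2 comparisons was 0.0036 and -0.011, beside -0.011 and -0.010 over all genes. These comparisons called 14% and 7.6% of all genes, near the share of 1 of 10 receptors. The model by Xist state, chosen after the data were seen, called receptors with CD on arrays without Xist. Tnfrsf1b rose by 1.41 (SE 0.23) in dko and 1.29 (SE 0.23) in wt. Il6ra changed by -0.69 in dko, and Il10ra by 0.43 and Il10rb by -0.63 in wt. That model called 18.2% of all genes in dko and 10.4% in wt there. No receptor was called with CD on arrays with Xist. Of 16 genes for partner subunits, other IL-1 family cytokines, processing and mRNA decay 12 were tested. In dko cells CD raised 2 of them without crystals, Zc3h12a, an RNase that degrades cytokine mRNAs, by 1.02 (SE 0.23, adjusted p = 0.0135), and Adam17, the protease that releases TNF from the membrane, by 0.82 (SE 0.19, adjusted p = 0.0201). With crystals it raised Zc3h12a by 0.98 (SE 0.23, adjusted p = 0.0214) and Il12a, the partner of Il12b in IL-12, by 0.86 (SE 0.22, adjusted p = 0.0367), detected on 3 of 4 arrays with CD and 0 of 4 without. The Il12a mean with CD was 1.46-fold above the dimmest detected signal on arrays without CD. It includes a CD array below detection, so this fold is not a lower bound. Over all wt arrays 0 of the 12 were called with CD by limma. The median change of the 12 with CD was 0.47 in unloaded and 0.52 in loaded dko cells and 0.20 and 0.27 in wt cells, beside -0.027, -0.017, -0.013 and -0.014 over all genes. In the same order these 4 comparisons called 1.71%, 1.8%, 0.895% and 0% of all genes. By Xist state, the largest called CD changes of the 12 on dko arrays without Xist were 1.81 (Nlrp3), 1.31 (Zc3h12a), 1.21 (Ebi3) and 1.18 (Il12a). In wt they were 1.34 (Zc3h12a), 0.97 (Ebi3), 0.57 (Adam17) and 0.44 (Casp1). The shares of all genes were those given for the receptors. With Xist, Zc3h12a (0.69), Adam17 (0.63) and Casp1 (0.50) were called in dko, against 2.91% of all genes, and none of the 12 in wt.

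With crystals in wt 2 of these 12 fell, Il18, a cytokine of the IL-1 family, by 0.92 (SE 0.15, adjusted p = 6.86e-05) and Zfp36, which speeds decay of Tnf mRNA, by 0.68 (SE 0.16, adjusted p = 0.00286). That comparison called 14% of all genes, near the share of 2 of 12. Under CD Il18 fell by 1.31 (SE 0.15, adjusted p = 4.55e-07), where 7.6% of all genes were called. Il18 was also higher by 0.72 (SE 0.16, adjusted p = 0.0302) in dko than in wt cells given crystals and CD, where 0.451% of all genes were called. The Xist difference of the CD effect was called for Il12a and Il27 in dko, at 1.07 (SE 0.18) and 1.30 (SE 0.22), and for Il12a and Zc3h12a in wt, at 0.57 (SE 0.16) and 1.06 (SE 0.18). It was called for 5.22% of all genes in dko and 3.51% in wt.

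Over 36 arrays the genes whose level followed Tnf most closely were Cd40, a co-stimulatory receptor, Ccl3, a chemokine, and Tnip1, an inhibitor of NF-kB signalling, with Pearson correlations of 0.974, 0.957 and 0.956, and of 0.955, 0.946 and 0.885 once group means were removed. Il1b was followed by Samsn1, Pde4b, a cAMP phosphodiesterase, and Cd69, an activation marker, at 0.929, 0.906 and 0.903, and 0.887, 0.891 and 0.926 within groups. Il1rn was followed by Zbtb18, Eno2, a glycolytic enzyme, and Trib3, a stress-induced pseudokinase, at 0.916, 0.914 and 0.912 over all arrays and 0.678, 0.526 and 0.645 within groups. Among the cytokines themselves Il1a and Il6 correlated at 0.962 within groups, Tnf and Il1a at 0.898 and Tnf and Il1b at 0.756, while Tnf and Il1rn gave -0.03. These correlations are across arrays that share treatments, slides and Xist states, and are given as a description.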

How the data were processed

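The authors deposited a table that pairs the intensity of every probe on every array with its detection p-value, and a series matrix that holds log2 of the same intensity, per its values (largest difference 5.57e-05), with no normalization between arrays. Per the labels' protocols, the RNA was extracted with TRIzol and turned into biotinylated cRNA. The submitters' processing notes name Partek without a role. Precision is limited by how many arrays each group held.

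Intensities were corrected and quantile-normalized with limma 3.58.1 (R 4.3.3) neqc, with an offset of 16. Probes with detection p under 0.05 on at least 4 arrays were kept, and the brightest probe stood for a gene, named through RefSeq symbols where they matched. A model of 8 group means was fitted to 36 arrays (28 residual and 3.94 prior degrees of freedom) and gave 17 comparisons, checked on simulated data. An at-least fold sets the brighter group's mean against the higher of the dimmer probe's own signal and the lowest signal with detection p under 0.05 on each array. Where arrays of the brighter group were themselves below detection, this fold is not a lower bound. Another 8 comparisons by Xist detection came from 16 means (20 residual degrees of freedom) and were chosen after the data were seen. The members and lists were chosen with earlier results of these data known. Genes named beside the members were called genes of the 2 context lists, up to 4 a comparison by size, and the 3 genes most correlated with Tnf, Il1b and Il1rn. No replicate pair of arrays appeared to be deposited more than once (smallest root-mean-square difference 0.239). Same-numbered wt arrays deviated together (every correlation over 0.1) in the comparisons of CD on loaded cells and of crystals under CD, which the data and not the labels show, and the block on number changed no member's call there. Alternatives were other normalizations, filters and probe choices, blocks for number, slide and Xist, subsets and each array left out.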

Additional observations from a re-analysis of the deposited data

Results flagged for a closer look

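On the wt array 1 with crystals alone Il6 read 4.64, against 4.26 to 4.36 on the other 4 arrays of its group, a gap large for the group's range. The probe was not detected on any of the 5, and of 48 groups of values checked 1 stood out in this way, where chance gives about 1 in 20.

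The CD effect differed between arrays without and with Xist by the test of the difference in the model of 16 means. In dko cells the difference was 1.61 for Tnf, 3.26 for Il1a, 2.90 for Il1b, 0.97 for Il1rn and 1.45 for Il6, all higher without Xist. Il6 passed the detection filter only through CD arrays without Xist, so its values in both genotypes are a description. In wt cells the difference was 2.63 for Tnf, 2.24 for Il1a, 4.36 for Il1b and 0.96 for Il6. The crystal effect on Il1b in wt differed by 2.69. Xist detection coincides with array number and slide in wt, where they cannot be told apart, and does not in dko.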

How the results depend on the processing

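Counts of called genes among the 6 tested kept to within 1.5 times in 550 of 620 repeats, and single changes kept their state, called or not, in 3601 of 3720, with 57 calls lost and 61 gained. Most changes were not called to begin with, so these totals largely count changes that stayed uncalled and do not measure how well calls held. Signs turned in 250 more where no call was made either way. For untreated Il1b the dko minus wt difference was 2.08 on arrays without Xist, a subset chosen after the data were seen, and -0.69 over all arrays. The calls for Tnf with CD in dko fell to 0 without and with crystals under median scaling (3.58 and 3.37, adjusted p = 0.0805 and 0.175), with values of the series matrix (adjusted p = 0.175 and 0.421) and with no detection filter (adjusted p = 0.0736 and 0.0786), against 1 call in each as reported, and the cause was not tested. Median scaling also gave 1 call with crystals under CD in wt, 3 for the Xist difference of the CD effect in dko and 0 for that of the crystal effect in wt. The series matrix values gave 1 and 1 with crystals in wt without and under CD, 0 with CD in wt arrays with Xist, 2 and 2 for the Xist difference of the CD effect in dko and wt and 0 for that of the crystal effect in wt. The mean of a gene's probes gave 1 call with crystals in dko (Il1rn) and 2 for the Xist difference of the crystal effect in wt.

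The fit with the replicate number as a block could be made for comparisons within a genotype; it gave 1 call with CD in unloaded wt (Tnf, adjusted p = 0.0344) and 1 with crystals in dko (Il1rn, adjusted p = 0.0425), where the fit without it gave 0, and changed no other call. Same-numbered arrays of 2 groups deviated together (correlation over 0.1) in 27 of 30 wt and 10 of 24 dko pairs, and the 3 wt pairs below it were of number 3 with untreated cells, so in comparisons with untreated cells and in dko the numbers were not taken to pair arrays. An array correlated best with its own number in 24 of 30 and 4 of 24, and all 30 wt pairs shared the Xist state. The slide as a fixed block gave 1, 1 and 1 with CD in unloaded wt, crystals in dko and crystals under CD in wt, and 0 for the Xist difference of the crystal effect in wt. As a random block (correlation 0.0985) it gave 1 and 1 for the first 2. Arrays 4 to 9 alone gave 0, 1 and 0 with crystals in wt, in dko and under CD in wt. Wt arrays 1 to 3 alone gave 1 with CD without crystals and 5 and 4 with crystals without and under CD.

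Of the settings added later, the Xist state as a block gave 1 with CD in unloaded and in loaded wt, 1 with crystals in dko and 1 for dko against wt with CD. Arrays without Xist alone gave 3 and 5 with CD in unloaded wt and dko, 4 and 4 in loaded wt and dko, 1 and 1 with crystals in dko without and under CD, and 1 for dko against wt untreated, with crystals and with both. The count of 5 and both counts of 4 include Il6, which passed the detection filter only through CD arrays without Xist. Arrays with Xist alone gave 1 with CD in unloaded wt, 5 and 4 with crystals in wt without and under CD, 2, 2, 2 and 1 for dko against wt untreated, with crystals, with CD and with both, and 2 for the genotype difference of the crystal effect. Counts from these subsets, and from wt arrays 1 to 3 alone, were not set beside the share of all genes called and are a description. Leaving out 1 array at a time gave 0 to 1 calls with CD in unloaded dko, loaded dko and unloaded wt and for dko against wt untreated and with CD alone, and 0 to 2 with crystals in dko, where array 6 or 9 of untreated dko cells changed the count. Signal near background limits Il1a, Il6 and Il12b. Il10 was dim too, at 87.5 to 200 intensity units on arrays with medians of up to 128.3.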
